A study of Mus musculus with 24 samples.

Results

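Dentate granule cells are the principal excitatory neurons of the dentate gyrus, the region through which cortical input enters the hippocampus. Their axons, the mossy fibers, contact pyramidal cells of CA3, and new granule cells continue to be made in the adult mouse. The transcription factor Prox1 sets and keeps granule cell identity, and granule cells differ in gene expression along the axis from the dorsal (septal) to the ventral (temporal) hippocampus.

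The 8 genes used as markers of these cells and followed here across a series of hippocampal RNA-seq libraries are Prox1, Stxbp6, Pdyn, Lct, Dsp, C1ql2, Tdo2 and Calb1. They were chosen by symbol from the table of counts, and all 8 were found among its 51912 genes and passed the filter on low counts in every comparison. The libraries came from 12 offspring of C57BL/6J males treated chronically with nicotine or with saline, and each offspring gave 1 dorsal and 1 ventral library. The 24 libraries form 8 groups of 3: offspring of nicotine-treated or saline-treated males (called nicotine-sired and saline-sired), of either sex, in either region. The offspring are C57BL/6J by label and no allele or treatment of their own is named. Their age, the dose and the length of the sires' treatment were not given in the sources used here. Each of the 4 sire treatment and sex combinations has its own number in the library titles. No label says whether that number marks a sire, a litter or something else, so it cannot be told apart from the treatment and the sex. The p-values below therefore measure the spread between these animals only.

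Total counts ran from 32049770 to 47486547 per library, with a median of 39578834. Ttr, a transcript made in large amounts by the choroid plexus, ranged from 34.4 to 5204 counts per 1000000 (CPM) in dorsal and from 25.2 to 1783 CPM in ventral libraries, and 6 animals had a library above 1000 CPM. The region labels were set beside 6 genes known to differ along the dorsoventral axis of granule cells. This list was chosen with earlier results of these data known, so it is no independent check of the labels. Of the 6 genes, 4 were higher in ventral libraries, against 14.3% of 19849 genes tested. The thyrotropin-releasing hormone receptor gene Trhr had a log2 fold change of 2.75 ± 0.31 (standard error, SE), the gastrin-releasing peptide gene Grp 1.87 ± 0.19, the nuclear receptor gene Nr2f2 1.77 ± 0.16 and the copine gene Cpne7 1.55 ± 0.15. The guanine nucleotide exchange factor gene Spata13 was lower at -1.12 ± 0.12, and Stra6 did not pass the test at -0.01 ± 0.11.

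All 8 markers were detected in every library. On a scale that allows genes to be compared, CPM per kilobase of merged exon, C1ql2 was the most abundant marker in the dorsal hippocampus at 42.3 ± 12.4 (SD, n = 12). C1ql2 encodes a secreted C1q-like protein that mossy fibers release and that clusters kainate receptors at their synapses. Calb1, the gene of the calcium-binding protein calbindin, stood at 22.1 ± 2.66 and Stxbp6, the gene of the syntaxin-binding protein amisyn, at 18.6 ± 3.13. Lct, which encodes the intestinal disaccharidase lactase, and Prox1 followed at 10.2 ± 3.23 and 9.30 ± 2.25. Pdyn, which encodes the precursor of the dynorphin opioid peptides, reached 5.83 ± 1.296. Dsp, the gene of the desmosomal plaque protein desmoplakin, reached 5.81 ± 1.68. Tdo2, the gene of the tryptophan-degrading enzyme tryptophan 2,3-dioxygenase, was lowest at 1.06 ± 0.34. In this order the ranges of neighbours overlapped, with the exception of Dsp, whose lowest library (2.12) lay above the highest of Tdo2 (1.55).

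In the ventral hippocampus C1ql2 and Calb1 were nearly level, at 25.6 ± 8.92 and 23.4 ± 2.41 CPM per kilobase, and their ranges overlapped. Stxbp6 stood apart from both of its neighbours in the order at 11.7 ± 1.65, below the lowest Calb1 library (18.4) and above the highest Prox1 library (7.50). Prox1 reached 5.34 ± 1.44 and Pdyn 3.15 ± 0.89, with overlapping ranges. Lct stood below Prox1 and Pdyn here, at 1.79 ± 1.04, the level of Dsp (1.79 ± 0.73). Tdo2 was again lowest at 0.525 ± 0.190, a level that rests on 47 to 123 counts per ventral library. These levels depend on the exon length taken from the annotation, which runs from 2000 bp for C1ql2 to 9659 bp for Dsp.

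The genes lie on 6 chromosomes of the GRCm38 assembly. Prox1 (ENSMUSG00000010175, chr1:190118035-190170714, minus strand), Lct (ENSMUSG00000026354, chr1:128284756-128328318, minus) and C1ql2 (ENSMUSG00000036907, chr1:120340582-120343174, plus) share chromosome 1. Pdyn (ENSMUSG00000027400) lies at chr2:129686565-129699844, Tdo2 (ENSMUSG00000028011) at chr3:81957090-81976202 and Stxbp6 (ENSMUSG00000046314) at chr12:44852484-45074709, each on the minus strand. Calb1 (ENSMUSG00000028222) lies at chr4:15881264-15908064 and Dsp (ENSMUSG00000054889) at chr13:38151294-38198577, both on the plus strand. The exons of Dsp overlap those of Gm10129 on the opposite strand over 499 bp, and those of Prox1 overlap Prox1os over 133 bp. The strand setting used in counting was not given in the sources used here, so reads of these stretches may have been counted with either gene.

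Several of these markers varied together between animals, as described further on, and the DNA before their first exon is shown here to let their starts be compared. Each run is the 200 bases before the RefSeq transcript start (GRCm38.p6), read 5′ to 3′ on the gene's own strand, in lower case with the NeuroD-type E-box in capitals. They are shown where the run lies outside all annotated exons of the gene. The positions are chr1:190170828-190171027 for Prox1, chr1:128328319-128328518 for Lct, chr13:38151094-38151293 for Dsp, chr1:120340382-120340581 for C1ql2 and chr2:129699939-129700138 for Pdyn.
Prox1: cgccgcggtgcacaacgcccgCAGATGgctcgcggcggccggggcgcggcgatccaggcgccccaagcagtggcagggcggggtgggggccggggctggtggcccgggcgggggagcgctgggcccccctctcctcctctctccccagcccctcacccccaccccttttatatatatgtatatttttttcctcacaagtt
Lct: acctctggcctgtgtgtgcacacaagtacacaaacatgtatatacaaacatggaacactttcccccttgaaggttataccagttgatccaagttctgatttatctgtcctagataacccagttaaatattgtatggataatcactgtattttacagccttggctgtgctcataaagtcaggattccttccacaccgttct
Dsp: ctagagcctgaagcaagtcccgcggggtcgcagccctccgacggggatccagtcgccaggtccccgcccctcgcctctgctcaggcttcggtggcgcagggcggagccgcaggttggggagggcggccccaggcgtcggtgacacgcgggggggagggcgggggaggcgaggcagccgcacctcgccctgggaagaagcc
C1ql2: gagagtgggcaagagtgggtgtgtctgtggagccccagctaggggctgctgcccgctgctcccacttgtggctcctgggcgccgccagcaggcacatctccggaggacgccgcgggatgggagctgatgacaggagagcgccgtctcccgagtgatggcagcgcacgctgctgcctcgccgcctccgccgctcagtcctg
Pdyn: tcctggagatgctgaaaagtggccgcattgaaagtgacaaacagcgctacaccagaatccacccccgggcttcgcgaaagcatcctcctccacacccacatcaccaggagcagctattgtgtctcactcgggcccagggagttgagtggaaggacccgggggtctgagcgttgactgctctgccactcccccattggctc

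The starts differed in base composition: over the 300 bases from 250 before to 50 after the start, GC content was 73.0% for Dsp, 67.3% for C1ql2, 64.3% for Prox1, 59.0% for Pdyn and 44.7% for Lct. RefSeq also held a second start for Prox1 (57.3%) and for Pdyn (44.3%), whose runs are not shown. Both strands of these 300 bases were searched for 4 motifs in the 7 markers that RefSeq's promoter table held, all but Calb1. The E-box CATCTG, a form bound by NeuroD factors, was found in 1 of them, Prox1. Its reverse complement CAGATG stands in the run above, 179 bases before the start, and the second start of Prox1 had no match. CATCTG is present in 17.2% of 32851 promoters of that length. The E-box CAGCTG (16.3% of promoters), the cAMP response element TGACGTCA (1.79%) and its core TGACG (20.8%), which is also part of the longer element, were found in none of the 7. A match is a description of these letters only, and so is the lack of one.

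The first comparison asked how the markers differ between dorsal and ventral hippocampus. Of the 8 markers, 7 were lower in the ventral hippocampus and Calb1 was not. Lct differed most, followed by Dsp, Tdo2, Pdyn, Prox1, C1ql2 and Stxbp6. In whole-tissue RNA, fewer granule cells in a dissection and less RNA of a gene per granule cell cannot be told apart. The 7 calls compare with 14.9% of 19849 genes called lower and 14.3% called higher in the ventral hippocampus at an adjusted p under 0.05 by edgeR's quasi-likelihood test (Benjamini-Hochberg adjustment over all genes in the fit). The median log2 fold change was -0.84 over the 8 markers and -0.01 over all genes tested.

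Lct ranged from 25.6 to 100.1 CPM in the 12 dorsal libraries, with a median of 62.8, and from 2.72 to 24.3 CPM in the 12 ventral libraries, with a median of 11.2. The regions did not overlap. The log2 fold change, ventral over dorsal, was -2.57 ± 0.31, or 5.94-fold lower (edgeR adjusted p = 1.12e-05). Dsp ranged from 20.5 to 79.3 CPM (median 58.8) in dorsal and from 4.44 to 24.1 CPM (median 20.1) in ventral libraries. Its only overlap came from 1 dorsal library, that of nicotine-sired female A at 20.5 CPM. Dsp was 3.29-fold lower in the ventral hippocampus, with a log2 fold change of -1.72 ± 0.27 (edgeR adjusted p = 0.000124).

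Prox1, the defining transcription factor of the cell type, ranged from 44.3 to 103.6 CPM (median 74.8) in dorsal and from 26.6 to 62.9 CPM (median 44.8) in ventral libraries. The regions overlapped, with 6 ventral libraries above the lowest dorsal one. Its log2 fold change was -0.80 ± 0.18, or 1.74-fold lower (edgeR adjusted p = 0.00243). Stxbp6 showed a smaller change with less spread: 73.8 to 123.4 CPM (median 94.8) in dorsal and 50.1 to 71.3 CPM (median 66.2) in ventral libraries. The 12 dorsal Stxbp6 values all lay above the 12 ventral ones, and the log2 fold change was -0.67 ± 0.08 (edgeR adjusted p = 4.18e-06). Lct and Stxbp6 were the 2 markers whose regions did not overlap, a pattern found in 0.458% of genes tested.

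Pdyn ranged from 9.57 to 23.7 CPM (median 17.5) in dorsal and from 6.15 to 15.7 CPM (median 8.78) in ventral libraries, with a log2 fold change of -0.88 ± 0.12 (edgeR adjusted p = 1.36e-05). The highest ventral Pdyn value, 15.7 CPM, belonged to nicotine-sired female A, and the next was 10.7 CPM. C1ql2 ranged from 38.9 to 114.9 CPM (median 90.9) in dorsal and from 27.5 to 85.3 CPM (median 48.6) in ventral libraries. It had the widest overlap of the 7, with 9 ventral libraries above the lowest dorsal one, and a log2 fold change of -0.75 ± 0.19 (edgeR adjusted p = 0.00613). Tdo2 ranged from 1.79 to 6.02 CPM (median 3.93) in dorsal and from 0.995 to 3.69 CPM (median 2.13) in ventral libraries. Its log2 fold change was -1.01 ± 0.18, or 2.01-fold lower (edgeR adjusted p = 0.000262).

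Calb1 was at 86.4 to 132.3 CPM (median 104.8) in dorsal and 89.0 to 134.4 CPM (median 114.3) in ventral libraries, and the ranges nearly coincided. Its log2 fold change was 0.08 ± 0.05, with a 95% interval from -0.03 to 0.20 (edgeR adjusted p = 0.270). Calbindin is also made by CA1 pyramidal cells and by some interneurons, so Calb1 is not limited to granule cells in this tissue. Which cells gave the RNA of Calb1 or of the other markers was not tested.

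**Figure D1:**
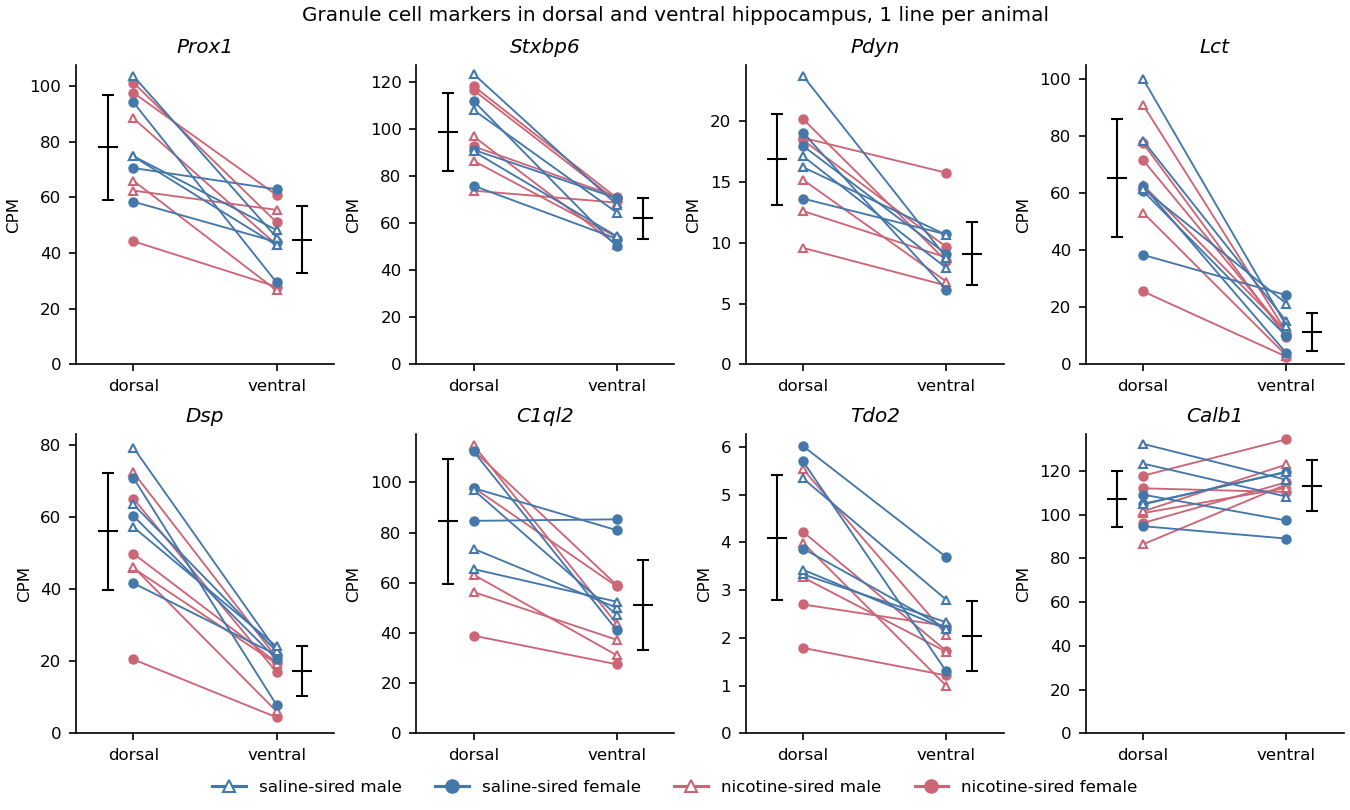
CPM of each marker (vertical axes, linear from 0) in the dorsal and ventral library of each animal, joined by a line; colours give the sire treatment, open triangles males, filled circles females, and black bars beside them the mean ± SD of 12 libraries. Every line falls from dorsal to ventral for Prox1, Stxbp6, Pdyn, Lct, Dsp and Tdo2, 11 of 12 fall for C1ql2, and 5 of 12 for Calb1.

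Since each animal gave both regions, the markers were also compared within each animal. Prox1, Stxbp6, Pdyn, Lct, Dsp and Tdo2 were lower in the ventral library in all 12 animals, which 4.84% of genes tested also showed. C1ql2 was lower in 11 of 12, the exception being saline-sired female C with a ventral to dorsal ratio of 1.01. The Lct ratio ran from 0.0581 in nicotine-sired male B to 0.632 in saline-sired female C, with a median of 0.144. The Prox1 ratio ran from 0.313 to 0.892 with a median of 0.598. Saline-sired female A had the lowest ratio of all animals for 6 of the markers (Prox1, Stxbp6, Pdyn, Dsp, C1ql2 and Tdo2).

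The size of the region difference was then set against that of Prox1 in the same animals, in 7 comparisons. These were chosen after the data were seen, so their p-values are descriptions only. Lct differed from Prox1 by a further -1.90 (SD 0.74) on the log2 scale and Dsp by -0.99 (SD 0.42), both lower than Prox1 in 12 of 12 animals. Calb1 differed by 0.89 (SD 0.39) and was above Prox1 in 12 of 12. Each of these 3 gave a two-sided exact sign-flip permutation p = 0.000488, unadjusted and the smallest that 12 animals allow. Tdo2 (-0.19, SD 0.39, exact permutation p = 0.122), Pdyn (-0.08, SD 0.43, exact permutation p = 0.506), C1ql2 (0.08, SD 0.28, exact permutation p = 0.364) and Stxbp6 (0.15, SD 0.26, exact permutation p = 0.0742) did not pass this test.

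In saline-sired animals alone, 6 markers were lower in the ventral hippocampus, against 7.72% of genes called lower and 6.78% called higher. In nicotine-sired animals alone, 7 were lower, against 8.15% called lower and 8.72% called higher. C1ql2 made the difference in count, at -0.58 ± 0.27 in saline-sired (edgeR adjusted p = 0.158) and -0.93 ± 0.27 in nicotine-sired animals (edgeR adjusted p = 0.0250). Its nicotine-sired call was lost in 4 of 12 refits that left out 1 animal, those without nicotine-sired male B, male C, female B or female C, with an edgeR adjusted p of up to 0.0865. Lct was lower by -2.18 ± 0.43 and -2.96 ± 0.45, and Dsp by -1.66 ± 0.38 and -1.78 ± 0.38. Prox1 was lower by -0.80 ± 0.25 in each (edgeR adjusted p = 0.0403 and 0.0364), and both calls were lost without the filter on low counts, when the choroid plexus level was added as a covariate, and in 7 of 12 refits that left out 1 animal. Without saline-sired female A the saline-sired count was 3.

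The difference between the region differences of the 2 sire treatments was tested directly. It passed for 0 of 8 markers by edgeR and for 0 by DESeq2, with 0.0% of all genes called by each. One marker had an unadjusted p under 0.05: Calb1, at 0.25 ± 0.11 (edgeR adjusted p = 0.881). Calb1 was lower in the ventral library in 4 of 6 saline-sired and 1 of 6 nicotine-sired animals. In nicotine-sired animals its region difference was 0.21 ± 0.08 (edgeR adjusted p = 0.0676), and with each animal as a block it passed the test as higher (0.21 ± 0.06, edgeR adjusted p = 0.0220), in a fit that called 23.4% of genes. The intervals of this test were wide for Lct, from -2.04 to 0.49, and for Dsp, from -1.23 to 0.98.

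**Figure D2:**
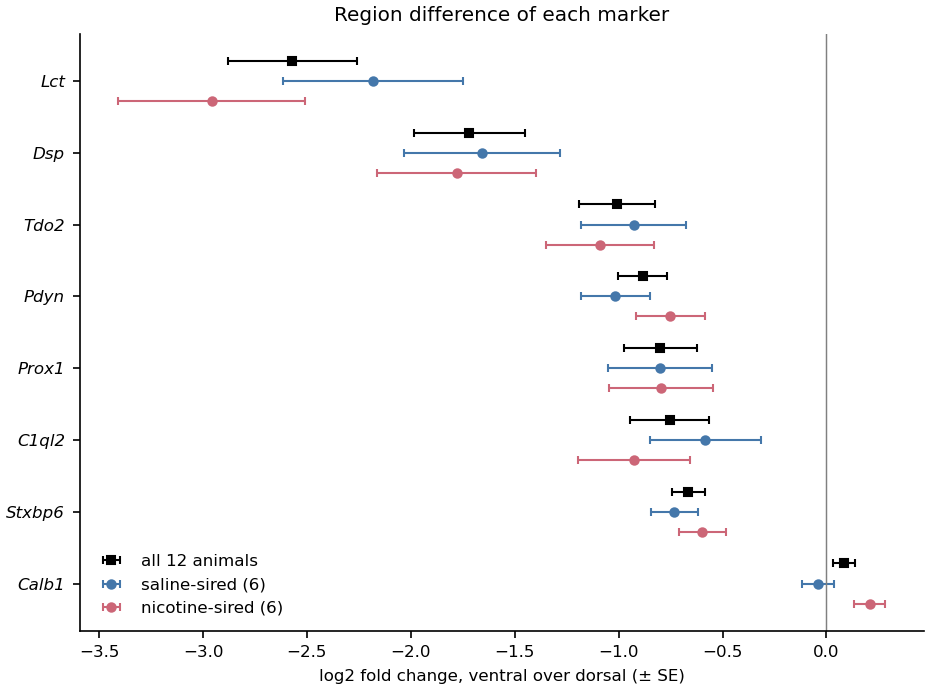
Log2 fold change of each marker, ventral over dorsal (horizontal axis, points with SE bars), in all 12 animals (black squares) and in the 6 saline-sired (blue) and 6 nicotine-sired (red) animals. Lct and Dsp lie farthest to the left at -2.57 and -1.72 in all animals, and Calb1 lies near 0 at 0.08.

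Other genes of granule cells were lower in the ventral hippocampus as well. Of 12 further granule cell genes, 9 were lower and 0 higher, with a median of -0.57. Those with the smallest p-values were the nephronectin gene Npnt (-0.82 ± 0.08, edgeR adjusted p = 4.25e-07), the polo-like kinase gene Plk5 (-1.11 ± 0.14, edgeR adjusted p = 8.11e-06) and the exchange factor gene Dock10 (-0.83 ± 0.13, edgeR adjusted p = 0.000118). The 3 that did not pass, named after their values were seen, were C1ql3 (-0.12 ± 0.07), Camk4 (0.06 ± 0.08) and Gsg1l (0.48 ± 0.21). Genes of newly made granule cells did not share 1 direction: 4 of 8 were higher, among them Calb2 (1.09 ± 0.21), and 2 were lower, Igfbpl1 (-2.35 ± 0.38) and Eomes (-2.09 ± 0.70). Which cell type gave the Calb2 RNA was not tested. Igfbpl1 and Eomes were at 2.51 and 1.97 CPM on average in dorsal libraries.

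Markers of other cell types differed between the regions in the same libraries. Of the lists for pyramidal cells, 3 of 6 CA3, 3 of 5 CA2 and 3 of 6 CA1 genes were lower in the ventral hippocampus, and 1 CA1 gene was higher. Of 6 mossy cell genes, 3 were higher and 1 was lower. Of 10 interneuron genes, 5 were higher and 0 lower, and their summed level ranged from 625 to 1160 CPM in dorsal and from 855 to 1063 CPM in ventral libraries. Of 12 choroid plexus genes, 10 were lower and 0 higher, and their summed level ranged from 61.1 to 5649 CPM in dorsal and from 47.6 to 1979 CPM in ventral libraries, with none of the 12 at 0 throughout. The part of interneurons, mossy cells and pyramidal cells in the marker differences was not tested. When the mean level of the choroid plexus genes was added as a covariate, 7 markers and 25.6% of all genes were called. Leaving out the 6 animals with a library above 1000 CPM of Ttr kept every sign, and 4 markers were called, beside 12.8% of all genes: Stxbp6 (-0.71 ± 0.14), Pdyn (-0.93 ± 0.14), Lct (-2.90 ± 0.34) and Dsp (-1.93 ± 0.30). Prox1 was then at -0.88 ± 0.25 (edgeR adjusted p = 0.105), C1ql2 at -0.84 ± 0.23 (edgeR adjusted p = 0.0938) and Tdo2 at -1.01 ± 0.28 (edgeR adjusted p = 0.0578).

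All markers but Prox1 and Lct were set beside partners of their own pathway or family. These partners did not follow the markers' direction as a rule. Pdyn makes dynorphins, which act on the kappa opioid receptor after cleavage by prohormone convertases. Of 9 opioid genes, 6 were higher and 2 lower in the ventral hippocampus. The nociceptin receptor gene Oprl1 (0.57 ± 0.06) and the kappa receptor gene Oprk1 (1.66 ± 0.30, from 0.433 to 1.46 CPM on average) were higher, and the proenkephalin gene Penk was lower (-0.66 ± 0.13). Tdo2 opens the kynurenine pathway. Of 10 other genes of that pathway, 5 passed the filter on low counts, and the formamidase gene Afmid alone changed, at 0.99 ± 0.13 (edgeR adjusted p = 9.06e-06).

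C1ql2 acts with neurexins, the adhesion receptor Adgrb3 and kainate receptors. Of 8 such genes, 1 was lower, Nrxn3 (-0.25 ± 0.05), and 0 were higher, with the kainate receptor gene Grik2 at 0.01 ± 0.06 and Adgrb3 at -0.07 ± 0.05. Dsp anchors intermediate filaments to desmosomes. Of 9 desmosome genes, 8 were tested: Dsc2 (0.88 ± 0.30) and Dsc3 (1.96 ± 0.48) were higher, and Pkp4 (-0.24 ± 0.05) and Jup (-0.16 ± 0.05) were lower. Of 8 calcium-binding protein genes beside Calb1, 4 were lower, among them the hippocalcin gene Hpca (-0.68 ± 0.12), and 1 was higher, Calb2, which is also among the genes of new granule cells. Stxbp6 binds syntaxin and restrains SNARE assembly. Of 9 SNARE genes, 3 were higher, among them Vamp2 (0.19 ± 0.04) and Cplx1 (0.28 ± 0.06), and 2 were lower, Stxbp5 (-0.17 ± 0.05) and Stxbp5l (-0.31 ± 0.11).

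The markers also varied between animals, here described over the 12 libraries of a region with its groups pooled. The coefficient of variation over 12 libraries was smallest for Calb1, 12.04% in dorsal and 10.3% in ventral libraries, and largest in dorsal libraries for Tdo2 (32.01%) and Lct (31.7%). In ventral libraries it was largest for Lct (58.2%), followed by Dsp (40.6%). Within single groups, ventral Dsp ran from 3.23% in saline-sired males to 59.3% in nicotine-sired females. Stxbp6 was the steadiest of the 7 genes that differed between the regions, with 16.8% and 14.1%. Within a region Lct spanned 3.91-fold among dorsal and 8.95-fold among ventral libraries, and Calb1 1.53-fold and 1.51-fold.

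The dorsal library of nicotine-sired female A held the lowest values of Prox1 (44.3 CPM), Lct (25.6), Dsp (20.5), C1ql2 (38.9) and Tdo2 (1.79). Its Pdyn (18.6 CPM) and Calb1 (117.8 CPM) lay above the dorsal medians of 17.5 and 104.8. The same library held the highest summed level of the 10 interneuron genes, 1160 CPM against a median of 828, and the lowest of the 12 other granule cell genes, 549.5 CPM against a median of 640.5. It was also highest in SNARE genes (8495 CPM, median 6272) and lowest in CA1 (498 CPM, median 629.1) and CA3 genes (122.1 CPM, median 163.5). Genes of newly made granule cells, ependyma, meninges and desmosomes were lowest in it too. Its calcium-binding protein genes were near the median (8105 against 8092 CPM). In the ventral hippocampus, Prox1, Lct, Dsp and Tdo2 were lowest in the same 3 libraries: nicotine-sired male B (26.6, 3.09, 6.08 and 0.995 CPM), nicotine-sired female A (27.9, 2.72, 4.44 and 1.21 CPM) and saline-sired female A (29.4, 3.94, 7.86 and 1.298 CPM).

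To describe this variation apart from the groups, each library's log2 CPM was taken as a deviation from the mean of its group of 3, and deviations were correlated over the 12 libraries of a region. The values of a pair of genes share a library, its depth and its scaling, and with 4 groups of 3 the 12 points hold 8 independent deviations, so these correlations are descriptions without a test. Prox1, Lct, Dsp, C1ql2 and Tdo2, grouped after the correlations were seen, varied closely together. The 10 pairs among them had Pearson correlations from 0.86 to 0.98 in dorsal (median 0.95) and from 0.68 to 0.93 in ventral libraries (median 0.86). Pairs that included Calb1 had medians of 0.09 in dorsal and 0.06 in ventral libraries, with its highest being 0.70, with Pdyn in the dorsal hippocampus.

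Stxbp6 and Pdyn were joined to the others in the dorsal hippocampus and less so in the ventral. Stxbp6 correlated with Prox1 at r = 0.85 (Spearman rho = 0.85) in dorsal and 0.57 (rho = 0.50) in ventral libraries. Pdyn correlated with Prox1 at r = 0.59 (rho = 0.66) in dorsal and at -0.35 (rho = -0.40) in ventral libraries. The difference between the regions in these correlations was not tested. The ventral values rest in part on single libraries: without the 2 libraries whose Prox1 lay farthest from the median, nicotine-sired male B and nicotine-sired female A, the ventral r of Pdyn was 0.18 and that of Stxbp6 0.73. For Dsp, r with Prox1 was 0.97 (rho = 0.94) in dorsal and 0.92 (rho = 0.79) in ventral libraries, and 0.95 and 0.83 without the 2 farthest libraries of each region. For Lct it was 0.95 (rho = 0.92) and 0.78 (rho = 0.66), and 0.88 and 0.58 without them. For Calb1 it was 0.09 (rho = 0.19) and 0.06 (rho = 0.08), and 0.42 and 0.37 without them, so its low values rest in part on these libraries.

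**Figure D3:**
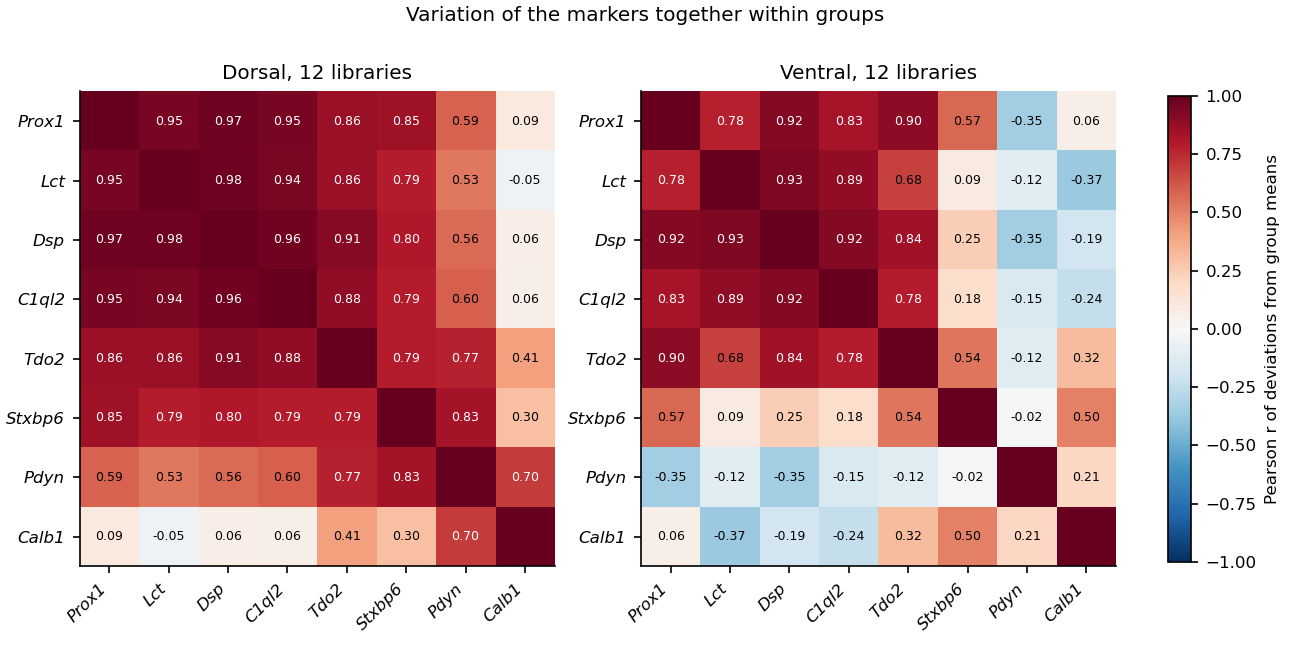
Pearson correlation of deviations from group means (colour scale from -1 to 1, values printed) between each pair of markers over 12 dorsal (left) and 12 ventral (right) libraries. Prox1, Lct, Dsp, C1ql2 and Tdo2 form a block of high values in both, and Pdyn leaves the block in the ventral hippocampus. Calb1 has 0.09 and 0.06 with Prox1 over all 12 libraries, and 0.42 and 0.37 without the 2 farthest in Prox1.

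The mean deviation of the 8 markers was followed against other lists in the same way. The 12 other granule cell genes moved with it, with r = 0.97 in dorsal and 0.88 in ventral libraries. The 10 interneuron genes moved against it, with r = -0.95 and -0.88. They were not alone in this: opioid genes had r = -0.93 and -0.77, and cortex and subiculum genes -0.69 and -0.70. SNARE genes had r = -0.68 and -0.32. CA3 genes gave r = 0.73 and 0.81, CA1 genes 0.30 and 0.04, and choroid plexus genes -0.04 and 0.59. The part of these cell types in the variation of the markers was not tested. Between the dorsal and the ventral library of an animal, the mean deviation over the markers had r = 0.21 (rho = 0.05) over 12 animals, with single markers from -0.29 for Pdyn to 0.52 for C1ql2.

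**Figure D4:**
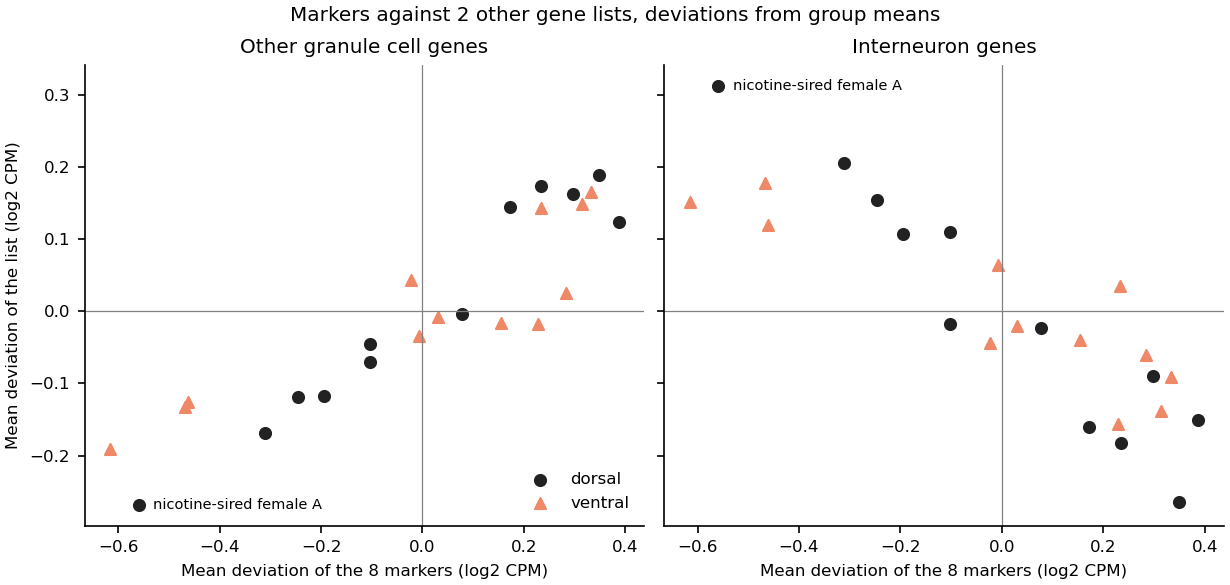
Mean deviation from the group mean, in log2 CPM, of the 8 markers (horizontal axes) against that of 12 other granule cell genes (left) and 10 interneuron genes (right), 1 point per library, with circles dorsal and triangles ventral. The points rise on the left (r = 0.97 and 0.88) and fall on the right (r = -0.95 and -0.88), and the dorsal library of nicotine-sired female A lies at the low end of the markers.

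Of 12168 other named genes, those whose deviations followed the mean of the markers most closely in the dorsal hippocampus were Mcm6 (r = 0.99), Cblb (0.98), Bhlhe22 (0.98), Cyp7b1 (0.98) and Neurod2 (0.97). In the ventral hippocampus they were Ippk (0.99), Pip5k1b (0.97), Cttn (0.97), Jph1 (0.97) and B3galt5 (0.97). These 10 genes had r from 0.69 to 0.94 in the other region, and each was lower in the ventral hippocampus, from -0.19 ± 0.05 for Cttn to -0.78 ± 0.11 for Jph1. Mcm6, which encodes a subunit of the replicative DNA helicase, lies next to Lct at chr1:128331575-128359705, 3256 bp away in RefSeq's annotation. Mcm6 ranged from 8.14 to 18.6 CPM in dorsal and from 6.23 to 11.0 CPM in ventral libraries, and its r with Lct itself was 0.94 in dorsal and 0.61 in ventral libraries.

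The second comparison asked whether the sire's nicotine treatment was followed by other marker levels in the offspring. No marker passed the test in any of the sire treatment comparisons by edgeR. In the dorsal hippocampus over both sexes, 0 of 8 were called by edgeR and 0 by DESeq2, with 0 at an unadjusted p under 0.05. Of all genes, edgeR called 0.0784% of 19130 and DESeq2 1.06%. In the ventral hippocampus, 0 of 8 were called by either tool, with 1 (Tdo2) at an unadjusted p under 0.05. Of all genes, edgeR called 1.75% of 19224 and DESeq2 3.54%. All 8 dorsal estimates were below 0 (median -0.12), and 5 of 8 ventral ones were (median -0.24), while the medians over all genes tested were 0.00 and 0.01.

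Prox1 ranged from 58.5 to 103.6 CPM (median 74.8) in the 6 saline-sired and from 44.3 to 101.2 CPM (median 77.2) in the 6 nicotine-sired dorsal libraries. In ventral libraries it ranged from 29.4 to 62.9 CPM (median 44.8) and from 26.6 to 60.8 CPM (median 47.0). The ranges overlapped nearly in full in both regions, and the log2 fold changes, nicotine-sired over saline-sired, were -0.05 ± 0.22 in dorsal and -0.05 ± 0.26 in ventral libraries. Their 95% intervals ran from -0.54 to 0.44 and from -0.63 to 0.54. Stxbp6 had the narrowest interval after Calb1 in the ventral hippocampus, at 0.09 ± 0.09 with a 95% interval from -0.12 to 0.29, and stood at -0.04 ± 0.11 in the dorsal.

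Lct differed by more in the ventral hippocampus, with wide error: 3.94 to 24.3 CPM (median 14.3) in saline-sired and 2.72 to 11.7 CPM (median 10.3) in nicotine-sired libraries. The log2 fold change was -0.83 ± 0.53 with a 95% interval from -2.04 to 0.39 (edgeR adjusted p = 0.504), and the groups overlapped. In the dorsal hippocampus Lct was at -0.05 ± 0.28. C1ql2 ranged from 41.1 to 85.3 CPM (median 51.2) in saline-sired and from 27.5 to 59.0 CPM (median 40.4) in nicotine-sired ventral libraries, with a log2 fold change of -0.47 ± 0.23 (edgeR adjusted p = 0.375). Dsp was at -0.44 ± 0.44 in ventral and -0.32 ± 0.27 in dorsal libraries. Over both sexes, the estimates of all 12 choroid plexus genes were above 0 in nicotine-sired libraries, with medians of 1.01 in dorsal and 1.71 in ventral libraries and 0 called. By sex they differed: in dorsal libraries all 12 were below 0 in males (median -0.70) and above 0 in females (median 2.70), and in ventral libraries 6 of 12 were above 0 in males and 12 in females (median 3.54). With their mean level as a covariate, 0 of 8 markers were called over both sexes in dorsal (0.0784% of genes called) and in ventral libraries (0.983%). Leaving out the 6 animals with a library above 1000 CPM of Ttr, Dsp was called in dorsal libraries at -0.79 ± 0.15 (edgeR adjusted p = 0.0416), beside 3.47% of all genes, and 0 markers were called in ventral libraries.

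Tdo2 was the marker with the lowest p over both sexes. In dorsal libraries it ranged from 3.33 to 6.02 CPM (median 4.61) in saline-sired and from 1.79 to 5.53 CPM (median 3.63) in nicotine-sired offspring, a log2 fold change of -0.38 ± 0.22 (edgeR adjusted p = 0.575). In ventral libraries it ranged from 1.298 to 3.69 CPM (median 2.26) and from 0.995 to 2.25 CPM (median 1.72), a change of -0.54 ± 0.25 (edgeR adjusted p = 0.318). The groups overlapped in both regions. Calb1 was at -0.12 ± 0.07 in dorsal and 0.13 ± 0.07 in ventral libraries, and C1ql2 at -0.12 ± 0.28 in dorsal ones.

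**Figure D5:**
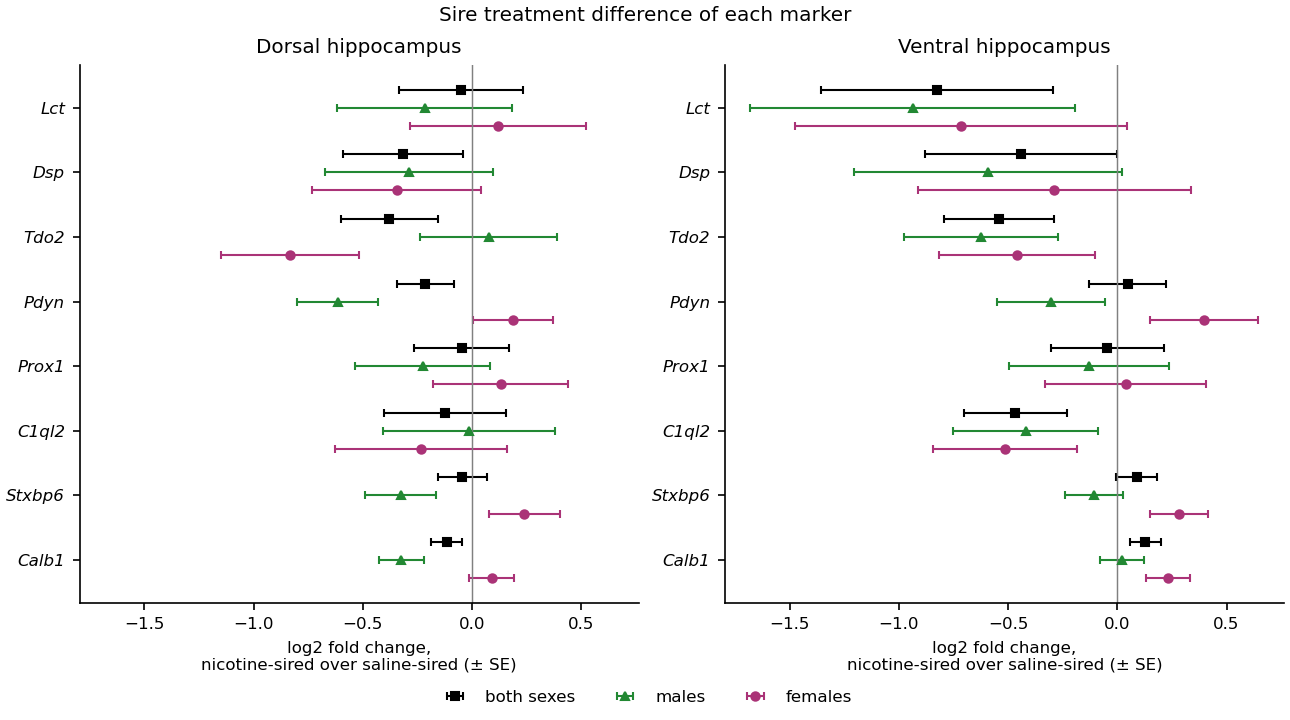
Log2 fold change of each marker, nicotine-sired over saline-sired (horizontal axes, points with SE bars), in dorsal (left) and ventral (right) libraries, for both sexes (black squares), males (green triangles) and females (purple circles). The dorsal Pdyn values of males (-0.61) and females (0.19) lie on either side of 0, and the ventral Lct estimate (-0.83) has the longest bars of those for both sexes.

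Split by sex, 0 of 8 markers were called by edgeR in dorsal males (1.78% of genes called), dorsal females (0.0314%), ventral males (3.21%) and ventral females (0.0312%). At an unadjusted p under 0.05 there were 2, 1, 0 and 1 markers, and DESeq2 called 1 in dorsal males, Pdyn, and 0 in the others. Of all genes DESeq2 called 4.59% in dorsal males, 1.49% in dorsal females, 4.65% in ventral males and 1.47% in ventral females. Dorsal Pdyn was 17.1, 23.7 and 16.2 CPM in saline-sired males A, B and C and 9.57, 12.6 and 15.2 CPM in nicotine-sired males A, B and C. The 3 nicotine-sired males all lay below the 3 saline-sired males. The share of all genes separated in this way was not counted, so the separation is a description only. The log2 fold change was -0.61 ± 0.19 (edgeR adjusted p = 0.125), and by DESeq2 -0.61 ± 0.19 (DESeq2 adjusted p = 0.0307). In the same males, the estimates of 12 of 12 choroid plexus genes, 5 of 5 ependymal genes (median -1.09) and 7 of 10 interneuron genes (median -0.28) were below 0 as well, with 0 called. The summed level of the ependymal genes ranged from 23.1 to 57.9 CPM in saline-sired and from 13.6 to 29.8 CPM in nicotine-sired males, and that of the interneuron genes from 834.7 to 971 and from 625 to 843.2 CPM. The summed choroid plexus level ranged from 156.5 to 5577 CPM and from 63.5 to 2110 CPM. With the choroid plexus covariate Pdyn of dorsal males was at -0.63 ± 0.16 (edgeR adjusted p = 0.0761). Without the 6 animals high in Ttr it was at -0.39 ± 0.21. That fit keeps 1 nicotine-sired male, male C, the highest of its group at 15.2 CPM, beside saline-sired males B and C. The smaller estimate therefore cannot be assigned to the choroid plexus level. The part of ependymal cells and interneurons was not tested.

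Dorsal Pdyn in females did not follow the males: 19.0, 17.9 and 13.6 CPM in saline-sired females A, B and C and 18.6, 20.2 and 18.4 CPM in nicotine-sired ones, a change of 0.19 ± 0.18 (edgeR adjusted p = 0.675). The difference between the sexes, female minus male, was 0.80 ± 0.26 (edgeR adjusted p = 0.120, DESeq2 adjusted p = 0.0419). Over all markers this difference was called for 0 of 8 by edgeR in dorsal libraries (2.24% of genes called), for 1 by DESeq2 (6.74%), and 3 had an unadjusted p under 0.05: Pdyn, Calb1 and Stxbp6. Stxbp6 was at 0.57 ± 0.23 (edgeR adjusted p = 0.199), from -0.33 ± 0.16 in males and 0.24 ± 0.16 in females. The same difference between the sexes was above 0 for 12 of 12 choroid plexus genes (median 3.54), 5 of 5 ependymal genes (median 2.53) and 9 of 10 interneuron genes (median 0.66), with 2 of the interneuron genes called. For Pdyn it was 0.96 ± 0.25 with the choroid plexus covariate (edgeR adjusted p = 0.0795). It was 0.39 ± 0.29 without the animals high in Ttr, where 1 nicotine-sired animal of each sex is left. In ventral libraries it was called for 0 by either tool, with 0 at an unadjusted p under 0.05 (1.07% of genes called by edgeR, 2.85% by DESeq2), and Pdyn was at 0.70 ± 0.35 (edgeR adjusted p = 0.403).

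Dorsal Calb1 was 104.9, 132.3 and 123.3 CPM in saline-sired males A, B and C and 86.4, 100.7 and 101.5 CPM in nicotine-sired ones. All 3 nicotine-sired males lay below the saline-sired ones here too, again without a count of the genes that did so. The log2 fold change was -0.32 ± 0.10 (edgeR adjusted p = 0.141), beside the lower estimates of other cell types' genes given above. In females it was 0.09 ± 0.10, and the difference between the sexes was 0.41 ± 0.15 (edgeR adjusted p = 0.142). In ventral females Calb1 was 97.3, 119.6 and 89.0 CPM in saline-sired and 134.4, 110.3 and 114.8 CPM in nicotine-sired animals. These groups overlapped, and the change was 0.23 ± 0.10 (edgeR adjusted p = 0.328), beside 0.02 ± 0.10 in ventral males.

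Dorsal Tdo2 in females was 5.70, 6.02 and 3.87 CPM in saline-sired and 1.79, 4.22 and 2.70 CPM in nicotine-sired animals, with 1 nicotine-sired value above the lowest saline-sired one. The log2 fold change was -0.83 ± 0.32 (edgeR adjusted p = 0.311), beside 0.08 ± 0.31 in males. The lowest of these values rest on 80 and 103 counts. Leaving out the animals with a library above 1000 CPM of Ttr keeps 1 nicotine-sired female, female A. Its dorsal library held the lowest values of 5 markers, the highest summed interneuron level and the other extremes given above. Set against 2 saline-sired females, and assumed to vary like the other groups, this library gave dorsal Tdo2 at -1.71 ± 0.30 (edgeR adjusted p = 0.00294). C1ql2, Tdo2 and Dsp were called in that fit for dorsal females, beside 9.32% of all genes, and for the difference between the sexes, beside 9.39%. That 1 library is the only nicotine-sired female in each of these calls.

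The 4 title numbers, each 1 combination of sire treatment and sex, were last compared as a whole. In dorsal libraries 0 of 8 markers differed between them by edgeR (1.5% of genes called) and 0 by DESeq2 (7.01%), and 2 had an unadjusted p under 0.05, Pdyn (F = 4.71, edgeR adjusted p = 0.214) and Calb1 (F = 3.57, edgeR adjusted p = 0.282). In ventral libraries 0 of 8 differed by either tool and 0 had an unadjusted p under 0.05 (3.65% of genes called by edgeR, 7.91% by DESeq2), with Prox1 at F = 0.0727 (edgeR adjusted p = 0.985). Without the animals high in Ttr, Tdo2 and Dsp differed between the dorsal title numbers, beside 11.0% of all genes.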

How the data were processed

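Hippocampal RNA went into libraries from a stranded kit for mRNA, and single-end reads of 150 bp were taken on 3 lanes, per the labels' protocols. TopHat2 2.1.0, Cufflinks, Cuffdiff 2.2.1.3, mm10 and GRCm38 are named without a role, per the submitters' processing notes. The authors deposited raw read counts for 51912 Ensembl genes. How they were counted, with which strand setting and annotation release, was not given in the sources used here. GENCODE M21 (GRCm38) held 51633 of the identifiers and gave coordinates and exon lengths. Promoter sequences came from RefSeq (GRCm38.p6).

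Tests on the deposited counts used edgeR 4.0.16 in R 4.3.3, with TMM scaling, the filterByExpr filter and a two-sided quasi-likelihood F test with robust spread, with Benjamini-Hochberg adjustment across the fit and a threshold of 0.05. Regions were compared in 1 fit of 24 libraries (19849 genes), and sire treatments in fits of the 12 dorsal (19130 genes) or 12 ventral (19224 genes) libraries, with 1 mean per group. Errors are SEs of log2 fold changes or SDs of levels. CPM used TMM-scaled library sizes, and log2 CPM a prior count of 2. The code was tested on simulated counts.

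The dorsal and ventral library of 1 animal share a title prefix. Over 12 animals their deviations from group means had r from -0.29 to 0.52 for single markers, and the fit with the animal as a block is given where it changed a call.

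Groups came from the labels. The members and gene lists were chosen with earlier results of these data known. All 8 members are named; from other lists, genes with the smallest p-values, and the 5 genes per region most like the members. Some genes of the other lists are not reported here by name. Alternatives were size factors as in DESeq2, all genes with a count, no robust spread, DESeq2 1.42.0 with its Wald test (the likelihood ratio test between title numbers), blocks by animal or title letter, 1 spread for all 24 libraries, and leaving out each animal. Chosen after seeing the data were the choroid plexus covariate, leaving out the 6 animals high in Ttr, the comparison with Prox1 and the group of 5 members.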

Additional observations from a re-analysis of the deposited data

How the results depend on the processing

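The 7 region calls over all animals were made under all alternatives, with the exception of leaving out the 6 animals high in Ttr, which gave 4. The range over refits without 1 animal was 7 to 7. In saline-sired animals the count of 6 ran from 3 to 6 over these refits, the 3 being without saline-sired female A, where Prox1, Dsp and Tdo2 lost their calls. In nicotine-sired animals the count of 7 ran from 5 to 7. It was 8 with the replicate block by animal, which called 23.4% of all genes. The shares of all genes called in the refits without 1 animal are not reported here. Leaving out the animals high in Ttr kept every sign. That setting leaves 2 nicotine-sired animals, with 1 library per group, so its nicotine-sired calls are not counted here.

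No sire treatment call was made in any refit without 1 animal. DESeq2 called 1 marker in dorsal males and 1 for the difference between the sexes, Pdyn in both. Leaving out the animals high in Ttr made calls in the dorsal hippocampus (Dsp, -0.79 ± 0.15) and in dorsal females. It also did so for the dorsal difference between the sexes and between dorsal title numbers. That setting leaves 1 library in each nicotine-sired group of a region, assumed to vary like the saline-sired ones, in dorsal females that of nicotine-sired female A, and it called 3.47%, 9.32%, 9.39% and 11.0% of all genes in these comparisons. The replicate block by title letter changed no call.

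Estimates near 0 changed sign in refits without 1 animal. In dorsal libraries Prox1 ran from -0.15 to 0.10 (0.10, 0.04 and 0.05 where reversed), Stxbp6 from -0.107 to 0.031 (0.0029, 0.0043, 0.0095 and 0.031), Lct from -0.18 to 0.13 (0.02, 0.13, 0.044 and 0.0082), C1ql2 from -0.32 to 0.044, and Tdo2 of males from -0.15 to 0.34 (-0.15, -0.04 and -0.03). In ventral libraries Prox1 ran from -0.18 to 0.10 (0.08, 0.08 and 0.10), Pdyn from -0.12 to 0.14 (-0.03, -0.12 and -0.05) and Calb1 of males from -0.018 to 0.053 (-0.018 and -0.014). Without the animals high in Ttr, Stxbp6 was at -0.13 in dorsal females, -0.00012 for the dorsal difference between the sexes and -0.016 in ventral libraries. Tdo2 had the fewest counts of the markers, at 47 to 222 per library. The cause of these changes was not tested.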
